A study of Mus musculus with 3 samples.

Results

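The genes described here encode the translation initiation factors, the proteins that bring a messenger RNA and the initiator tRNA to the ribosome, together with the 4E-BP inhibitors. They were chosen by symbol, from Eif1 to Eif6, leaving out the eIF2alpha kinases (Eif2ak). Of 64 symbols that met this rule, 51 had a probe on the array through its RefSeq accession, and 48 of these could be measured, with a signal that the scanner software called well above background. All 48 were so on each of the 3 arrays, out of 13162 genes measured on any of them. The measured 48 comprised 6 scanning and start-codon factors, 5 genes for eIF2 and the related eIF2A and eIF2D, 5 subunits of eIF2B, 13 of eIF3, 13 eIF4 genes, 3 genes for 4E-BP, and 3 for eIF5A and eIF6. In 3 genes no probe stood well above background, and these were Eif5b (levels -3.43, -5.72 and -4.95), the oocyte-type cap-binding gene Eif4e1b, and Eif2s3y, the Y-linked copy of the eIF2 gamma subunit (levels -5.41, -5.22 and -5.36). Eif5b was matched to 1 probe only, so its absence from the cells cannot be read from this. The 13 symbols without a probe were mostly pseudogenes.

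RNA came from CD4+ T cells 2 days after stimulation, taken from female C57BL/6 mice aged 8 weeks, with 1 array for wild type (WT), 1 for Dll1-/- and 1 for Rbpj-/-. Dll1 is a Notch ligand on the cell surface, and Rbpj binds DNA and carries the signal of cleaved Notch to its target genes. The study's title concerns survival signalling through Dll1 in activated helper T cells. The sources used here do not give which cells carried each deletion, how the cells were purified and stimulated, or how many mice each RNA came from. Every difference below is between single arrays, so it has no replicate check and no p-value, and genotype cannot be told apart from any other difference between the mice or the preparations.

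In cap-dependent initiation, eIF2 carries the initiator tRNA to the small ribosomal subunit together with eIF1, eIF1A, eIF3 and eIF5, and eIF2B recharges eIF2 with GTP after each round. The eIF4 proteins bind the cap of the messenger RNA, unwind its leader and link it to eIF3, while 4E-BP proteins hold the cap-binding protein eIF4E back until mTOR phosphorylates them. Stimulated T cells raise their protein synthesis before they divide, and the initiation factors are part of that growth programme.

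Levels are log2 of the processed signal, set to 0 at the 75th percentile of its array, and wherever 3 levels follow a gene they stand in the order WT, Dll1-/-, Rbpj-/-. Errors after ± are those that Feature Extraction, the scanner software, gives for the spots, carried through to the difference. They cover the measurement on the array only, and were about 0.20 for a gene on 1 probe. On the 3 arrays 46.6%, 50.1% and 47.3% of 55678 probes were well above background, the 75th percentiles of the log2 signal were 7.47, 7.28 and 7.14, and the lowest signals well above background were 19.2, 8.08 and 15.2. The median SD between repeated spots of a probe was 0.06 to 0.07. All 7 CD4 T cell markers examined were well above background on every array, among them Cd3e (6.75, 6.80 and 6.68) and Cd4 (1.93, 1.89 and 2.31). Rbpj itself was lower in Rbpj-/- (1.04, 1.32 and 0.53), and Dll1 did not stand well above background in any sample. The sources used here do not give whether these probes lie in the deleted parts.

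The initiation factor genes were lower on the Rbpj-/- array than on the WT array, by a small amount spread over most of the family. In Rbpj-/- against WT, 41 of 48 members were lower (85.4%), where 60.2% of all genes were. The members' median difference was -0.22, against -0.07 over all 11579 genes measured on both arrays, and 39 members lay below the all-gene median, which by construction 50% of genes do. Since many of these genes give bright signals, the 20% of all genes with the highest mean level are the closer background. There the median was -0.15 and 77.2% of genes were lower, and the 26 members inside that range had a median of -0.23 with 23 lower.

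Dll1-/- against WT differed less. The median over members was -0.05, against -0.03 over all genes and -0.05 over the 20% with the highest level. Of the 48 members 31 were lower (64.6%), where 55.6% of all genes and 63.5% of the brightest were, so this count is near the background of bright genes. The direct difference of Rbpj-/- against Dll1-/- had a median of -0.17 over members, against -0.03 over all genes and -0.09 over the brightest, and 37 of 48 members were lower, where 55.1% of all genes and 68.8% of the brightest were. These comparisons share arrays: WT serves both knockouts, and each knockout enters 2 differences. By order, Rbpj-/- was the lowest of the 3 arrays for 36 of 48 members, where it was for 47.4% of all genes and 64.4% of the brightest. WT was the highest for 27 (39.8% of all genes, 52.7% of the brightest) and the lowest for 3 (24.1% and 12.04%). Dll1-/- was the highest for 15 and the lowest for 9, where it was for 28.8% and 28.5% of all genes and 28.9% and 23.6% of the brightest, and Rbpj-/- was the highest for 6 (31.4% and 18.4%).

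**Figure D1:**
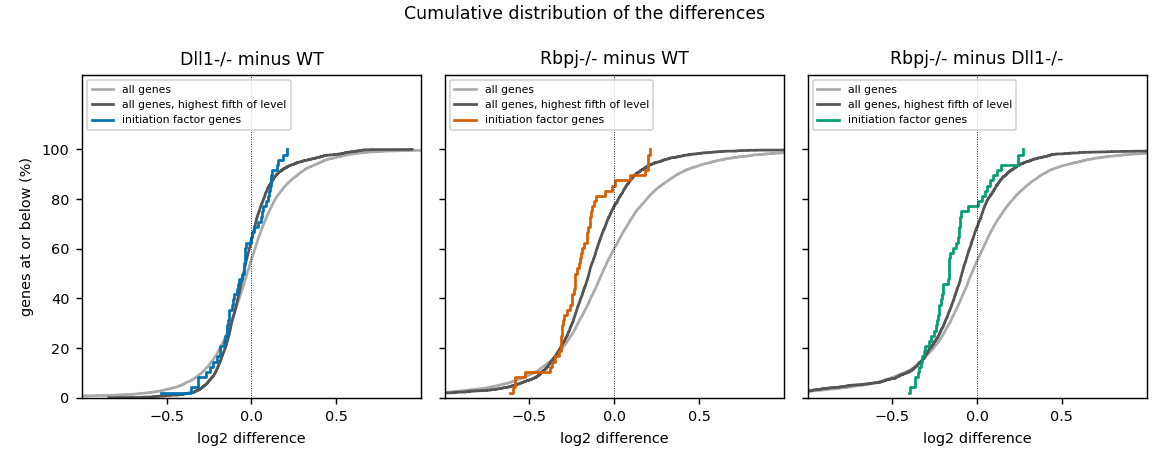
Cumulative share of genes (percent, y axis) at or below each log2 difference (x axis) in the 3 comparisons, for all genes measured on both arrays, for the 20% of genes with the highest mean level, and for the 48 initiation factor genes. In Rbpj-/- minus WT the members' curve lies left of both backgrounds in its middle, with a median of -0.22 against -0.07 and -0.15, while in Dll1-/- minus WT the curves nearly coincide.

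Single members rarely stood far apart. At least 1.5-fold apart were 0 of 48 members in Dll1-/- against WT (4.21% of all genes), 3 in Rbpj-/- against WT (11.8%) and 0 in Rbpj-/- against Dll1-/- (11.6%). Among the brightest genes these shares were 1.41%, 6.23% and 7.56%, so the 3 of 48 members in Rbpj-/- against WT (6.25%) are near the share of bright genes. Only 26 of the 48 lie in that bright range, and 2 of these 26 passed. The 3 members were Eif5a, Eif4a3 and Eif3f, all lower in Rbpj-/-, where 6.91% of all genes lay that far below WT and 4.86% that far above it. Under normexp background correction with quantile normalization 0 members passed 1.5-fold in Rbpj-/- against WT, where 5.43% of the brightest genes did. With median scaling 5 did (10.4%), against 11.3% of the brightest, and with scaling to the spike-in spots 43 did (89.6%), against 91.6%, so under those scalings too the members were near the share of bright genes. More than 2 errors from 0 in Rbpj-/- against WT were 10 members (20.8%), all lower, where 21.1% of all genes and 17.0% of the brightest were past 2 errors in either direction, and 13.3% and 14.2% were so and lower. In Dll1-/- against WT 2 members were (Eif2d and Eif3i), where 8.34% of all genes and 5.43% of the brightest were, and in Rbpj-/- against Dll1-/- 2 were (Eif3c and Eif4e), where 18.7% and 15.4% were.

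**Figure D2:**
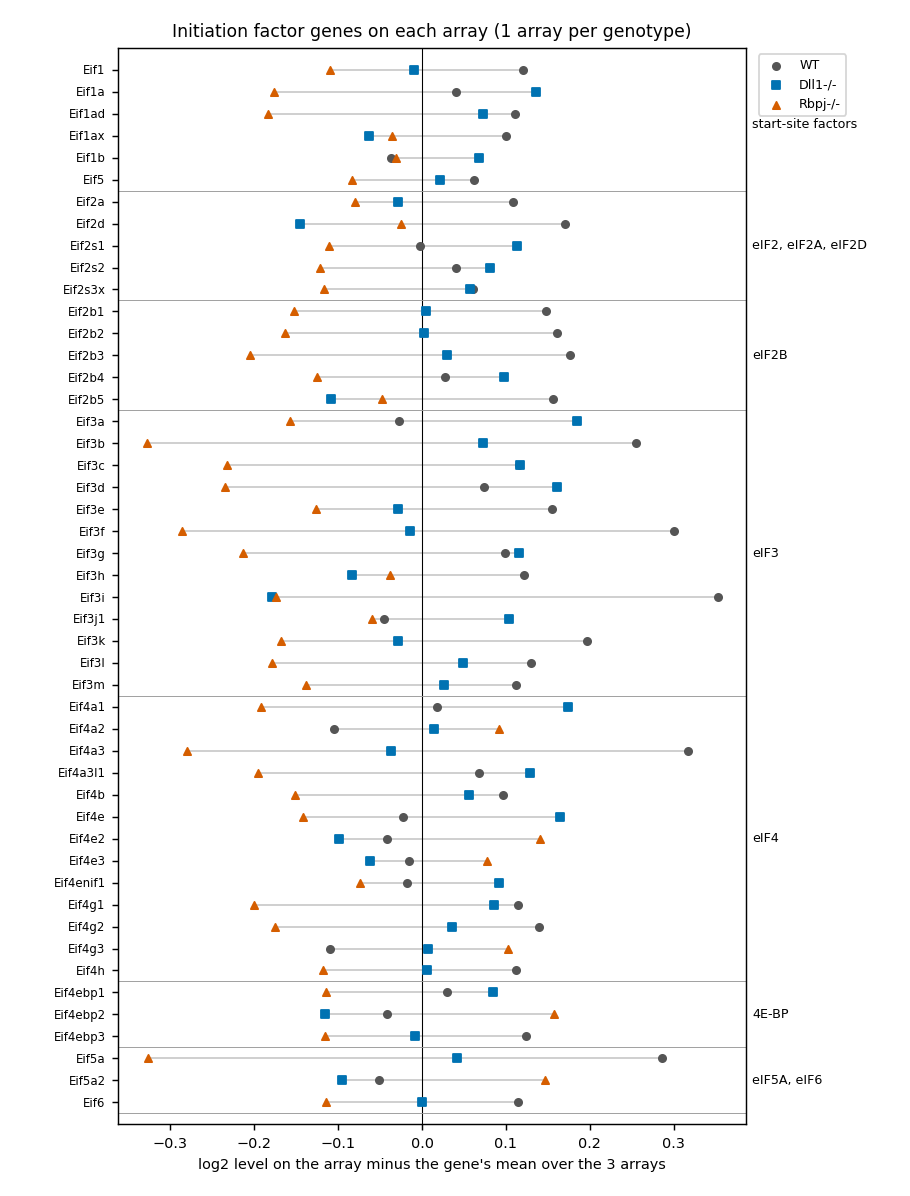
Each of the 48 measured genes on the WT, Dll1-/- and Rbpj-/- arrays, as the log2 level minus that gene's mean over the 3 arrays (x axis), grouped by role; each point is 1 array. The Rbpj-/- point is the lowest of the 3 for 36 genes and the highest for 6 (Eif4a2, Eif4e2, Eif4e3, Eif4g3, Eif4ebp2 and Eif5a2), positions that hold for the 75th percentile scaling.

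How far the family as a whole was lower depended on how the arrays were put on 1 scale, so the members are best read against other genes on the same arrays. The spots of E1A, a control RNA spiked into the labelling in an amount that the sources used here do not give, placed the median of all genes at -0.81 in Rbpj-/- against WT and the members' at -0.97, with all 48 members lower. Scaling to the array medians gave -0.24 for all genes and -0.39 for the members. The distance between members and all genes is the same, -0.15, under any such shift. It was -0.08 after normexp with quantile normalization, where 33 of 48 members were lower and 34 lay below the all-gene median, and -0.22 with no filter on dim probes. In Dll1-/- against WT the distance was -0.03, -0.004 after normexp, and 0.05 with no filter on dim probes. These distances are to all genes. Against the closer background of bright genes, members stood less far apart in Rbpj-/- against WT under the main setting. The medians there were -0.23 for the 26 members in that range and -0.15 for the bright genes. The distance to bright genes after normexp is not given here.

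**Figure D3:**
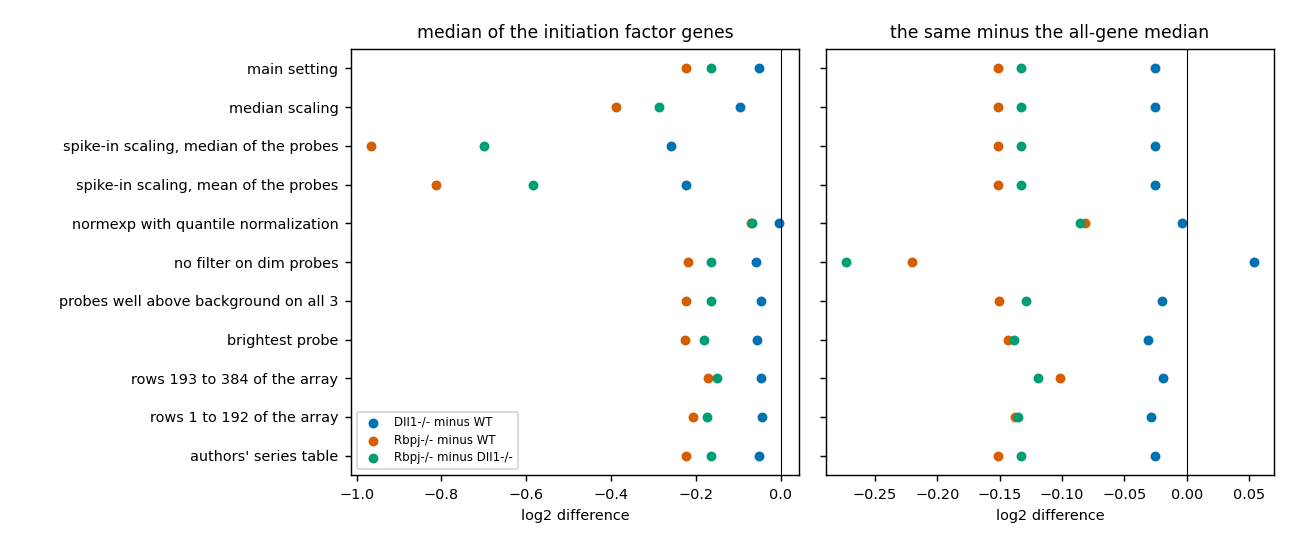
Median log2 difference of the initiation factor genes (left) and the same minus the median of all genes (right) in the 3 comparisons, for the main setting and 10 alternatives; each point is 1 median. The Rbpj-/- minus WT median runs from -0.97 with spike-in scaling to -0.07 with normexp, and its distance to all genes from -0.22 to -0.08.

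The factors that scan for and recognise the start codon were little apart. Eif1, which holds the ribosome open for scanning, was at 6.01, 5.88 and 5.78, and its close relative Eif1b at 3.68, 3.78 and 3.68. Eif1a was at 3.34, 3.44 and 3.12 and the X-linked Eif1ax at 4.69, 4.52 and 4.55, so only the first was lowest in Rbpj-/-. Eif5, which triggers GTP hydrolysis by eIF2 at the start codon, was at 4.85, 4.81 and 4.70. Eif1ad, which carries an eIF1A domain, was at 4.02, 3.98 and 3.72 and had the group's largest difference in Rbpj-/- against WT, -0.29 ± 0.14. Under the main setting 60.2% of all genes and 77.2% of the brightest were lower in that comparison, the background for this and later groups. The same shares were 55.6% and 63.5% in Dll1-/- against WT, and 55.1% and 68.8% in Rbpj-/- against Dll1-/-. After normexp these shares are not given here. The median of all genes was then 0.01 in Rbpj-/- against WT and -0.001 in Dll1-/- against WT. Of this group 5 of 6 were lower in Rbpj-/- against WT, with a median of -0.18. After normexp 2 of 6 were, with a median of 0.01. Against Dll1-/- the median was -0.10 with 5 of 6 lower, and Dll1-/- against WT gave -0.04 with 4 of 6 lower.

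All 5 measured genes of eIF2 and its relatives were lower in Rbpj-/- than in WT under the main setting, by 0.11 to 0.20 and with a median of -0.18. All 5 were also lower after normexp, with a median of -0.09. The other scalings moved every gene further down and so could not change the count. The alpha subunit Eif2s1, whose phosphorylation by stress kinases shuts initiation down, was at 2.59, 2.70 and 2.48. The beta subunit Eif2s2 was at 3.42, 3.46 and 3.26, and the gamma subunit Eif2s3x at 1.69, 1.68 and 1.51. For these 3 subunits Dll1-/- was near or above WT and Rbpj-/- was the lowest array. Eif2a, an alternative carrier of the initiator tRNA, was at -0.45, -0.59 and -0.64. Eif2d, which acts in non-canonical initiation and in ribosome recycling, was at 1.36, 1.04 and 1.16 and so was lowest in Dll1-/-, with a difference from WT of -0.32 ± 0.15. Of the probes behind Eif2d, 1 is printed on 10 spots, whose SD was 0.13, 0.06 and 0.05, and that probe gave -0.22 in Dll1-/- against WT where the other gave -0.41.

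The 5 genes of eIF2B, the exchange factor for eIF2, were all lower in Rbpj-/- than in WT with a median of -0.30, and 4 of 5 were after normexp, with a median of -0.18. Its regulatory core subunits were at 2.24, 2.10 and 1.94 for Eif2b1, at 4.88, 4.72 and 4.56 for Eif2b2, and at 4.43, 4.50 and 4.27 for Eif2b4. Eif2b3 was at -0.25, -0.39 and -0.63, a difference in Rbpj-/- against WT of -0.38 ± 0.15 that its 2 probes gave as -0.42 and -0.35. Eif2b5, the catalytic subunit, was at 0.91, 0.65 and 0.71, lower than WT on both knockout arrays by -0.27 ± 0.21 and -0.20 ± 0.21. In Dll1-/- against WT 4 of 5 were lower, with a median of -0.15.

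The 13 genes of eIF3, the large scaffold that joins the small ribosomal subunit to the messenger RNA, were all lower in Rbpj-/- than in WT under the main setting and each of the scalings, and 12 were after normexp and with the brightest probe of each gene. Their median was -0.31, and -0.11 after normexp, and relative to the median of all genes it was -0.24 and -0.12. The lowest was Eif3f, a subunit with an MPN domain, at 4.50, 4.18 and 3.91, with a difference from WT in Rbpj-/- of -0.59 ± 0.20. Eif3b was at 3.09, 2.91 and 2.51, a difference from WT of -0.58 ± 0.20 in Rbpj-/- and -0.18 ± 0.20 in Dll1-/-. Its partner Eif3i was at 2.87, 2.33 and 2.34, lower by the same amount, -0.53 ± 0.20, on both knockout arrays against the shared WT array. Each of these 3 genes rests on 1 probe.

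Several other subunits followed another order. Eif3a was at 1.92, 2.13 and 1.79, and Eif3c at 5.99, 5.99 and 5.64, so Dll1-/- was at or above WT and Rbpj-/- below both. The cap-binding subunit Eif3d was at 6.92, 7.01 and 6.61 and Eif3g, a partner of Eif3b and Eif3i, at 7.03, 7.04 and 6.71, in the same order. Eif3a, Eif3b, Eif3c and Eif3d were among the 6 members with the lowest values in Rbpj-/- against Dll1-/-, at -0.34 ± 0.20, -0.40 ± 0.20, -0.35 ± 0.14 and -0.40 ± 0.20. The subunits Eif3e, Eif3k, Eif3l and Eif3m had their highest level in WT and their lowest in Rbpj-/-, with Eif3e at 3.07, 2.89 and 2.79, Eif3k at 6.16, 5.94 and 5.80, Eif3l at 6.54, 6.46 and 6.23, and Eif3m at 5.36, 5.27 and 5.11. Eif3h, the other subunit with an MPN domain, was at 6.25, 6.05 and 6.09. Eif3j1, which is only loosely attached to the complex, was at 2.77, 2.92 and 2.75 and was the eIF3 gene nearest to WT in Rbpj-/-, with a difference of -0.01 ± 0.14. In Dll1-/- against WT 8 of 13 eIF3 genes were lower, their median being -0.09, and 7 were after normexp.

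The promoter of Eif3f is shown because it was the lowest eIF3 gene and its window holds both motifs searched in this family. These were CACGTG, the E-box that Myc and related factors bind, and TGGGAA, the core that Rbpj binds, each on both strands and with no overlap between them. The sequence is from RefSeq on GRCm38.p6, chr7:108934165-108934444 on the + strand, from 250 bases before the annotated start to 30 after it. Capitals mark the motifs.
Eif3f: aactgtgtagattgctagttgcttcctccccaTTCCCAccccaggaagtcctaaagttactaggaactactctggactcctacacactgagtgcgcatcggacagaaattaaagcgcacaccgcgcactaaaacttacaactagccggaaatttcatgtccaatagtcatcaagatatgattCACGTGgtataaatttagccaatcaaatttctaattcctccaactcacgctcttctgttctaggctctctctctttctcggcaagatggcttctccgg
CACGTG stands 68 to 63 bases before the start, and the reverse complement of TGGGAA at -218 to -213.

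**Figure D4:**
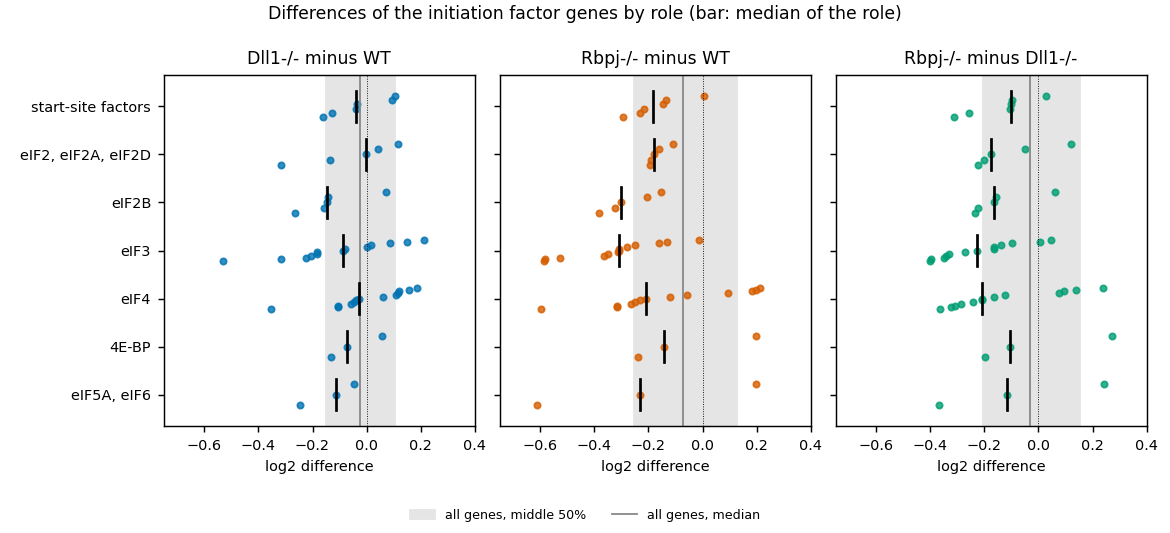
Log2 differences of the 48 genes by role (y axis) in the 3 comparisons; each point is a gene, black bars are medians of the role, and the grey band and line are the middle 50% and the median of all genes. In Rbpj-/- minus WT the eIF2B and eIF3 medians (-0.30 and -0.31) lie below the grey band's lower edge, with the eIF4 points spread to both sides of 0; after normexp they were -0.18 and -0.11.

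The eIF4 genes, which bind the cap, unwind the messenger RNA and build the scaffold, were split. In Rbpj-/- against WT 9 of 13 were lower (69.2%, against 77.2% of the brightest genes), their median being -0.21. After normexp 7 of 13 were, with a median of -0.02. The helicase Eif4a1 was at 7.06, 7.22 and 6.85, and its close relative Eif4a2 at 4.90, 5.02 and 5.09, so under the main setting the first was lowest and the second highest in Rbpj-/-. Against WT, Eif4a1 went from -0.21 to 0.06 after normexp, and Eif4a2 from 0.20 to -0.54 under spike-in scaling. Eif4a1 differed by -0.37 ± 0.20 in Rbpj-/- against Dll1-/-. Eif4a3, a helicase of the exon junction complex that carries the family name but acts in splicing and decay, was at 2.24, 1.88 and 1.64, lower than WT by -0.35 ± 0.20 in Dll1-/- and -0.60 ± 0.20 in Rbpj-/-, which is 1.51-fold. Eif4a3l1, named as a copy of Eif4a3, was at 4.35, 4.41 and 4.09, and the values of both are uncertain because their probes may share transcripts. The helicase partners Eif4b and Eif4h were at 1.81, 1.77 and 1.57, and 5.99, 5.88 and 5.76.

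Among the scaffolds, Eif4g1 was at 5.35, 5.32 and 5.04, while Eif4g3 was at 1.40, 1.52 and 1.61. Eif4g2, which lacks the eIF4E-binding part and serves cap-independent initiation, was at 2.06, 1.96 and 1.75. The cap-binding protein Eif4e was at 1.99, 2.18 and 1.87, a difference in Rbpj-/- against Dll1-/- of -0.31 ± 0.14, and Eif4enif1, which carries eIF4E to the nucleus and to decay bodies, was at 3.05, 3.16 and 2.995. The cap-binding relatives Eif4e2, a repressor of translation, and Eif4e3 ran the other way, at 0.36, 0.30 and 0.54, and -1.38, -1.43 and -1.29. Eif4e2 is a poor measurement: its 3 probes spanned 0.87 in Rbpj-/- against WT, and the brightest gave -0.34 where the mean was 0.18. In Dll1-/- against WT 7 of 13 eIF4 genes were lower, their median being -0.03, and 4 of 13 were after normexp, where the median was 0.07. The highest were Eif4e at 0.19 ± 0.14, Eif4a1 at 0.16 ± 0.20, Eif4a2 at 0.12 ± 0.14 and Eif4g3 at 0.12 ± 0.15, none of them past 2 errors.

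The promoters of the helicase and scaffold pairs are shown because the genes of each pair ran in opposite directions in Rbpj-/- under the main setting. They are from RefSeq on GRCm38.p6, at chr11:69672394-69672673 on the - strand (Eif4a1), chr16:23107218-23107497 on the + strand (Eif4a2), chr16:20672477-20672756 on the + strand (Eif4g1) and chr4:137993205-137993484 on the + strand (Eif4g3, 1 of 2 windows listed). Capitals mark CACGTG.
Eif4a1: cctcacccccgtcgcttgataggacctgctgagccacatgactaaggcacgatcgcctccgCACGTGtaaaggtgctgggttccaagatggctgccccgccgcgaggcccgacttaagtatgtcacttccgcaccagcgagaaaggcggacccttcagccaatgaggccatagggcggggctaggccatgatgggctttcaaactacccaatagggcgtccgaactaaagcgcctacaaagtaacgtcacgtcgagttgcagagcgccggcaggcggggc
Eif4a2: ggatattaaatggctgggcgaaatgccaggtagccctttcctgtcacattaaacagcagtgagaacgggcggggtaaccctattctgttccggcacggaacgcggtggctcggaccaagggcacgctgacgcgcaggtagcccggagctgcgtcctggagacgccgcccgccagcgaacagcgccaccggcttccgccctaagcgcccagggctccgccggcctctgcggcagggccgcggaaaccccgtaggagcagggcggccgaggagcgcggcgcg
Eif4g1: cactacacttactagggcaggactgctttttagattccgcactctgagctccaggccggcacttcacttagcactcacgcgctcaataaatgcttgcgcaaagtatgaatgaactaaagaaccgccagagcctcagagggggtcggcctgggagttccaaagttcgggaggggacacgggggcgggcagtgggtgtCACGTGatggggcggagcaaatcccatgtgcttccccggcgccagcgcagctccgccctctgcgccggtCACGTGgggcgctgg
Eif4g3: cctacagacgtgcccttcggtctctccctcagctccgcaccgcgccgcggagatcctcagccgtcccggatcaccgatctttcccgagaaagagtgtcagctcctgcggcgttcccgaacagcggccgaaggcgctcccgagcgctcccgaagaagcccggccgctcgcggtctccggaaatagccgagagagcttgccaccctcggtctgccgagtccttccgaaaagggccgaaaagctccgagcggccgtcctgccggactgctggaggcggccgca
Eif4a1 holds CACGTG at -189 to -184 and Eif4g1 at -54 to -49 and again at 15 to 20, while these letters are not in the windows of Eif4a2 and Eif4g3, and TGGGAA is in none of the 4.

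The 3 genes for 4E-BP did not run together. Eif4ebp1, the main target of mTOR in many tissues, was at 2.78, 2.83 and 2.63, with differences in Rbpj-/- of -0.14 ± 0.20 against WT and -0.20 ± 0.20 against Dll1-/-. Eif4ebp2 was at 3.595, 3.52 and 3.79, higher in Rbpj-/- by 0.20 ± 0.20 against WT and 0.27 ± 0.20 against Dll1-/-, though lower under spike-in scaling. Eif4ebp3 was at 2.50, 2.36 and 2.26, with a difference of -0.24 ± 0.20 in Rbpj-/- against WT. In Rbpj-/- against WT 2 of 3 were lower under the main setting, with a median of -0.14, and 1 of 3 after normexp. None of these differences passed 2 errors, and arrays of RNA do not show the phosphorylation through which the proteins are controlled.

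Eif5a had the lowest value of the family in Rbpj-/- against WT. It encodes the hypusine-bearing factor that helps ribosomes through difficult stretches, and its levels were 3.54, 3.29 and 2.92. That is a difference of -0.61 ± 0.20 or 1.53-fold in Rbpj-/-, and -0.24 ± 0.20 in Dll1-/-. Its relative Eif5a2 was at -0.31, -0.36 and -0.11, higher in Rbpj-/- by 0.20 ± 0.21 against WT and 0.24 ± 0.21 against Dll1-/-, though lower under spike-in scaling. Eif6, which keeps the large ribosomal subunit from joining too early, was at 4.25, 4.14 and 4.02. Both enzymes that make hypusine on eIF5A were also lower in Rbpj-/-, with Dhps at 1.48, 1.21 and 0.96 and Dohh at 4.02, 4.02 and 3.72, although the probes of Dhps gave -0.86 and -0.18.

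In total 7 members were higher in Rbpj-/- than in WT under the main setting: Eif4g3 (0.21 ± 0.15), Eif4ebp2, Eif5a2, Eif4a2 (0.20 ± 0.14), Eif4e2 (0.18 ± 0.17), Eif4e3 (0.09 ± 0.24) and Eif1b (0.01 ± 0.20). None passed 2 errors, and all 7 were lower under spike-in scaling, from -0.74 to -0.53. A shift of the whole array cancels within the contrast with their relatives, but an offset that depends on signal level does not. In the pairs named next, the gene with the higher difference was the dimmer one. In Rbpj-/- minus WT, Eif5a2 exceeded Eif5a by 0.81 ± 0.29, with 0.58 to 0.81 over the settings in which both were measured. Eif4g3 exceeded Eif4g1 by 0.53 ± 0.25 (0.32 to 0.53) and Eif4a2 exceeded Eif4a1 by 0.41 ± 0.25 (0.24 to 0.54). Under the main setting the first and the second were past 2 errors and the third was not. The lowest values, 0.58, 0.32 and 0.24, came with normexp and quantile normalization.

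Other related genes were less apart or not steady. Eif4ebp2 exceeded Eif4ebp1 by 0.34 ± 0.29 (0.32 to 0.34), Eif4e3 exceeded Eif4e by 0.21 ± 0.28 and Eif1b exceeded Eif1 by 0.24 ± 0.25. Eif4e2 exceeded Eif4e by 0.30 ± 0.22, but from -0.15 to 0.47 over settings, the lowest with the brightest probe. Eif1ax against Eif1a gave 0.08 ± 0.29. Between the knockout arrays, Eif4a2 exceeded Eif4a1 by 0.44 ± 0.25, Eif4g3 exceeded Eif4g1 by 0.38 ± 0.25 and Eif5a2 exceeded Eif5a by 0.61 ± 0.29, whereas Dll1-/- minus WT gave -0.04 ± 0.25, 0.15 ± 0.25 and 0.20 ± 0.29 for the same pairs. The pairs were chosen after their values were seen, so these contrasts are a description. Probes of 1 gene also differed: the 2 probes of Eif4a2 gave 0.33 and 0.07, and those of Eif4g3 gave 0.39 and 0.03, the dimmer probe giving the larger value in both genes.

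**Figure D5:**
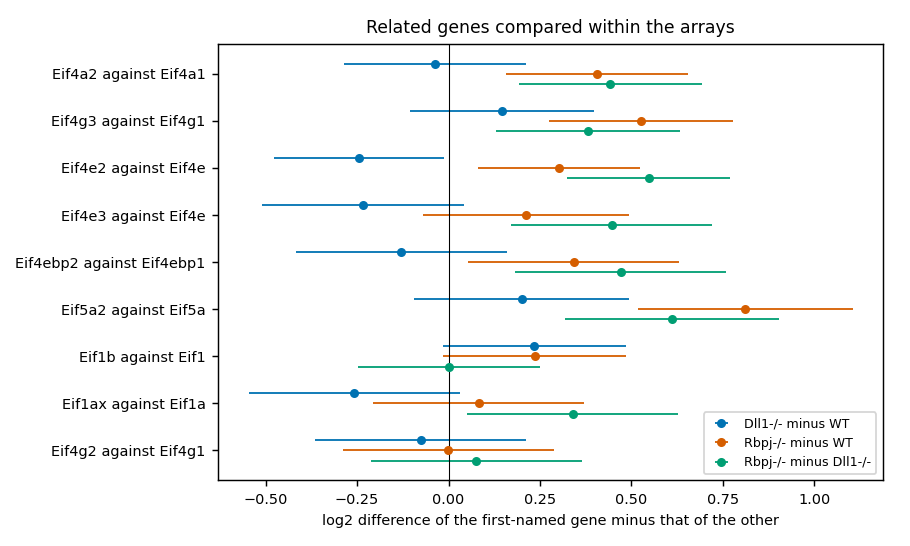
Log2 difference of 1 gene minus that of its relative (x axis) for 9 pairs in the 3 comparisons; points are values and bars are Feature Extraction's errors carried through. In Rbpj-/- minus WT Eif5a2 lies 0.81 ± 0.29 above Eif5a and Eif4g3 0.53 ± 0.25 above Eif4g1, contrasts that 1 shift of the whole array cannot move. After normexp with quantile normalization they were 0.58 and 0.32.

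Lower values were found in many probes and in both sets of array rows. Of the 70 probes behind the 48 genes, 58 were lower in Rbpj-/- than in WT. Counted by gene, 60.2% of all genes and 77.2% of the brightest were lower, and the share over all probes is not given here. Of the members' probes in rows 1 to 192 of the array 30 of 36 were lower, with a median of -0.21. In rows 193 to 384 27 of 33 were, with a median of -0.19. In all, 29 members rest on 1 probe and 19 on several. Among the 19, probes pointed in opposite directions in 3 in Rbpj-/- against WT, 6 in Dll1-/- against WT and 4 in Rbpj-/- against Dll1-/-, and the median range between probes of a gene was 0.15 in each. Eif5a and Eif4a3 have their only probe in rows 1 to 192, and Eif3f, Eif3b and Eif3i theirs in rows 193 to 384. With rows 193 to 384 alone, 0 members were at least 1.5-fold apart in Rbpj-/- against WT.

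Promoter windows of 300 bases were listed for 38 of the 48 genes. CACGTG was in the window of 10 of them (26.3%), where 8.09% of all 27025 genes with a listed window hold it. That background includes genes not measured on these arrays. The share among measured or bright genes is not given here, so no trait of the family is read from the 26.3%. The 10 were Eif1b, Eif3a, Eif3f, Eif3k, Eif4a1, Eif4e, Eif4g1, Eif4h, Eif5a and Eif5a2. Their median difference in Rbpj-/- against WT was -0.22, and that of the others -0.20. TGGGAA was in the window of 10 (26.3%), against 28.3% of all genes, with medians of -0.15 for these and -0.22 for the others. A match is a string of letters and no evidence of binding, and the absence of one says only that the letters are not in that window.

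Genes that act beside the initiation factors were described from lists. Of 20 cytosolic aminoacyl-tRNA synthetases 19 were lower in Rbpj-/- than in WT (95%), where 60.2% of all genes and 77.2% of the brightest were. The synthetases had a median of -0.33, or -0.18 after normexp, and their largest differences were those of Wars (3.65, 3.39 and 2.79) and Rars (-0.09, 0.34 and -0.85). Rars was -1.19 and Yars -0.80 in Rbpj-/- against Dll1-/-, and both were higher in Dll1-/- than in WT, by 0.43 and 0.66, although Yars is dim (-2.41, -1.75 and -2.55) and was 0.17 after normexp. Of 12 elongation and termination genes 11 were lower in Rbpj-/- than in WT (91.7%), with a median of -0.22, or -0.10 after normexp. The delivery complex subunit Eef1g was at 4.94, 4.61 and 4.53, and the release factor Gspt1, at 2.11, 2.31 and 1.98, had the largest difference below 0 in Rbpj-/- against Dll1-/- (-0.32). Eef2k, the kinase that inhibits eEF2, had a mean of -3.42, -3.78 and -2.42, but its 3 probes gave 0.41, 3.10 and -0.50 in Rbpj-/- against WT, so no direction is read from it.

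The cytosolic ribosomal protein genes took another order than the initiation factors. Of 79, 71 were lower in Dll1-/- than in WT (89.9%, against 55.6% of all genes and 63.5% of the brightest), their median being -0.14. In Rbpj-/- 62 were lower than in WT (78.5%, against 77.2% of the brightest genes) with a median of -0.10. After normexp 43 were, with a median of -0.01. In Rbpj-/- against Dll1-/- 25 of 79 were lower (31.6%), where 55.1% of all genes and 68.8% of the brightest were. The ribosomal protein genes' median of 0.03 turned to -0.50 under spike-in scaling and -0.09 under median scaling. Relative to the median of all genes it was 0.07 under each of these scalings, and -0.08 with no filter on dim probes, whereas that of the initiation factors was -0.13 and -0.27. The largest single differences were those of Rps2 (7.54, 6.72 and 7.52), of Rpl39l (-1.30, -0.94 and -1.59), and in Rbpj-/- against WT of Rpl7a (-0.43) and Rps15a (0.37).

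The regulators of initiation lay nearer to the background, in which 60.2% of genes were lower in Rbpj-/- than in WT. Of 11 genes for eIF2alpha kinases and the stress response 8 were lower in Rbpj-/- than in WT, with a median of -0.10. The stress-induced factors Ddit3 (1.20, 0.93 and 0.52) and Atf5 (2.93, 2.88 and 2.40) were the lowest of them, and Trib3 was at 2.93, 2.66 and 2.99. Among 14 helpers and brakes of initiation 10 were lower, with a median of -0.09, or 0.01 after normexp. Pdcd4, which blocks the eIF4A helicase, was at 6.34, 5.83 and 7.07, and Paip1, Paip2b and Dhx29 were the others higher in Rbpj-/- than in WT. Pdcd4 differed by 0.73 against WT, by 0.89 after normexp and by -0.01 under spike-in scaling, and by 1.24, 1.39 and 0.71 against Dll1-/-. Larp1, which represses ribosomal protein messages, was at 3.30, 3.32 and 2.93, and the helicase Dhx29 at -0.29, 0.03 and -0.25. Of 13 genes that feed mTOR and Mnk signals to 4E-BP and eIF4E 9 were lower, with a median of -0.16, or 0.00 after normexp. Myc, a transcription factor that drives many translation genes, was at 1.94, 1.98 and 1.49, the mTOR inhibitor Ddit4 at 3.12, 3.47 and 3.52, and the dim Tsc2 at -1.88, -2.39 and -2.92, whose -1.04 in Rbpj-/- against WT became -0.34 after normexp.

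Markers of other blood cells also differed between the arrays. Both CD8 T cell markers were lower in Rbpj-/- than in WT, with differences of -0.76 for Cd8a and -0.57 for Cd8b1. The B cell, NK cell and myeloid markers each went in both directions in that comparison. Cd79a and Pax5, the B cell markers that were higher, were not well above background in WT. Of the B cell markers, Cd79b was at 3.41, 3.41 and 2.88 and Ms4a1 at 2.48, 2.50 and 1.75, whereas the dim Cd79a was at -3.13, -3.17 and -2.04 and Pax5 at -3.81, -3.28 and -3.65. For 2 CD8 T cell markers the summed processed signals were 241, 209 and 116, for 5 NK cell markers 774, 949 and 137, and for 5 myeloid markers 8389, 5715 and 10322. Unlike the levels, these sums are of signals not scaled between the arrays, whose 75th percentiles were 7.47, 7.28 and 7.14. The NK sum rests on Gzma (2.00, 2.42 and -1.07), while Tyrobp was at -1.84, -0.74 and -2.08 and the dim Klrb1c at -4.38, -3.11 and -2.47. The myeloid sum rests on Itgam, whose probes gave -0.41 and 0.66 in Rbpj-/- against WT, while Fcer1g gave -0.15, Lyz2 0.02 and Csf1r 0.34. Cd8a, Cd8b1, Cd79b, Ms4a1 and Itgam were well above background on all 3 arrays, whereas Ncr1, Klrk1 and Adgre1 were on none. Their part in the values of the initiation factor genes was not tested, and in such bulk RNA fewer cells of a type and less RNA per cell cannot be told apart. Xist was well above background on all 3 arrays and the Y-linked Ddx3y, Kdm5d and Uty on none, and neither was Eif2s3y on any.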

How the data were processed

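Cy3-labelled cRNA from 20 ng of RNA per sample was hybridised to 1-colour Agilent mouse arrays, per the labels' protocols. The 3 arrays lie on 1 slide with 1 scan time, per the file headers. The deposited scanner files give intensity on a linear scale. The processed signal was made by Feature Extraction from the spot and background signals (10.7 per the submitters' processing notes, 10.7.1.1 per the file headers). A series table deposited by the authors gives log2 values, which matched log2 of the processed signal plus 1 constant per array (-7.47, -7.27 and -7.14) within 0.01 for 100% of probes. Its column medians were -3.44, -3.40 and -3.28, and its scale, direction and lack of centring per gene were read from that match.

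From 62976 spots per array, control spots and outlier spots (143, 163 and 139) were left out, and 0 spots were saturated. Log2 signals were averaged over the spots of a probe and scaled to the 75th percentile over non-control probes (7.47, 7.28 and 7.14). Accessions matched 27507 of 55678 probes (49.4%) to 20886 genes of the RefSeq table of GRCm38.p6, which was used for names and promoter windows. The array design names mm9. For each gene, probes that passed the well-above-background mark on any array were averaged. Called means at least 1.5-fold apart, among genes well above background on both arrays. With 1 array per group no test was run, and that number limits the precision. On simulated arrays the steps recovered the differences put in. All of these were larger than any member's difference under the main setting, so recovery of smaller ones was not checked. The simulated shifts between arrays were the same at every level.

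Alternatives were median scaling, E1A spike-in scaling over 8 probes, normexp (offset 50) with quantile normalization in limma 3.58.1 (R 4.3.3), 2 other rules on dim probes, the brightest probe, each set of array rows, and the series table. Normexp was run on the median spot signal, since the mean spot signal it was planned for was not used here. Named members are the 6 highest and 6 lowest of each comparison, members past 1.5-fold, the 4E-BP genes and Eif2s3y, and the 2 genes furthest from 0 in each other list. Other members were added with their levels. Members, lists and motifs were chosen with earlier results of these data known. The gene pairs, the promoters shown, the counts of errors and their shares over all genes, the bright-gene background and the setting with rows 1 to 192 were chosen after these values were seen. Python 3.11.15, numpy 2.4.6, pandas 2.3.3 and matplotlib 3.10.9 were used. A marker gene and the sum that holds it are not reported here.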

Additional observations from a re-analysis of the deposited data

How the results depend on the processing

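No median difference over the members changed direction under the 10 alternatives. That of Dll1-/- against WT was however only -0.005 after normexp, with 24 of 48 members lower, so no direction is read from it there. Median and spike-in scaling moved every gene further down, so they could not turn a median that was below 0. Relative to all genes, the median of Dll1-/- against WT went from -0.03 to 0.05 with no filter on dim probes. No paired analysis was possible because each group has 1 array, and for the same reason no array could be left out. Scaling moved the medians most. With E1A spike-in scaling they were -0.26 in Dll1-/- against WT, -0.97 in Rbpj-/- against WT and -0.70 in Rbpj-/- against Dll1-/-, with 1, 43 and 37 members at least 1.5-fold apart (7.02%, 77.8% and 48.1% of all genes, and 1.90%, 91.6% and 59.3% of the brightest 20%). That scaling took the median over the E1A probes, which was chosen after the mean had been seen, because 1 of 8 probes ran against the others (-0.96 in Rbpj-/- against WT, where the median was 0.41). With the mean the medians were -0.22, -0.81 and -0.58 and the counts 1, 41 and 23 (1.33%, 77.7% and 34.9% of the brightest). Median scaling gave -0.39 in Rbpj-/- against WT, with 5 members past 1.5-fold (11.3% of the brightest), and -0.29 in Rbpj-/- against Dll1-/-. Normexp with quantile normalization gave -0.071 and -0.068 in these, with 0 members past 1.5-fold in Rbpj-/- against WT. Rows 193 to 384 also gave 0 there. With no filter on dim probes 1 member passed in Dll1-/- against WT and 1 in Rbpj-/- against Dll1-/-, of 51, where the main setting had 0 of 48. The other medians stayed within 0.07, the median spot SD over probes well above background, a tolerance narrowed to those probes after the first values were seen. In Rbpj-/- against WT 40 of 48 members kept the sign of their difference under normexp and 41 of 48 under spike-in scaling. In Dll1-/- against WT these counts were 41 and 32. Where only 1 probe measures a gene, or its signal is near background as for Eif5a2 and Eif4e3, the single arrays limit what can be read.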
